A study of Mus musculus with 9 samples.

Results

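Genes of the DNA replication machinery were followed in engineered mouse muscle. The set holds 31 genes picked by symbol, and all 31 were among the 40879 symbols that the files list. The rule names symbols and uses no measured value, although earlier results of these data were known when the set was chosen. RNA was profiled at its 3' ends in 9 libraries, 3 in each of 3 groups, made from C2C12 cells, mouse myoblasts that can fuse to myotubes in culture, embedded in a gel of matrix prepared from muscle tissue. The labels give every construct as wild type, grown for 2 days in growth medium and then kept for 10 days in differentiation medium with 10% equine serum. Irradiated constructs received 20 Gy of X-rays once, which the study used to induce senescence. Cocultured constructs were not irradiated and shared a dish with an irradiated construct. Normal constructs were not irradiated and had no such partner. The series text states 2 irradiated and 2 normal constructs and 2 constructs of a condition per dish, whereas the labels give 3 replicates per group, so some replicates may share a dish. The p-values below measure the spread between these samples, which may be partly technical. All groups are 1 cell line in vitro, and the day of irradiation within the culture is not given in the sources used here.

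Before a cell copies its DNA, the loaders CDC6 and CDT1 place the MCM2 to MCM7 ring, the motor of the replicative helicase, on origins. In S phase CDC45 and the GINS complex join the ring, DNA polymerase alpha with primase starts each strand, polymerases delta and epsilon extend it on the sliding clamp PCNA, and FEN1 and LIG1 join the fragments of the lagging strand. Many of the genes are transcribed late in G1 under E2F factors, and myoblasts that differentiate leave the cell cycle and lower them. In bulk RNA, fewer cells that use a gene and less of its RNA per cell cannot be told apart.

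The promoters of the set were described first, since they carry a feature the choice of genes did not use. A RefSeq promoter on mouse build GRCm38.p6, running from 250 bases before to 50 bases after the annotated start (300 bases), was found for 26 of the 31 genes. None was found for Mcm4, Gins1, Gins2, Gins4 and Pole. Some genes have more than 1 promoter, 31 in all for the 26 genes, and a match in any of them counted for the gene. The letters searched for E2F were TTTCCCGC, TTTGGCGC, TTTCGCGC and TTTGCCGC on both strands, and these words overlap in some promoters. At least 1 such match lay in 13 of the 26 genes (50%), against 2.60% of all 27025 genes with a promoter. CCAAT, or its complement, was found in 16 of the 26 (61.5%), against 41.1% of all genes, and TTTGAA, or its complement, in 4 of the 26 (15.4%), against 20.2%. A match describes letters and is no evidence of binding, and these counts carry no test.

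Of the 14 genes whose groups did not overlap in at least 1 comparison below, 12 have a promoter and 9 of these hold an E2F match. Of the 14 other genes with a promoter, which include the untested Mcm10, 4 hold a match. That difference was not tested, and the 14 genes without overlap mix both directions. The shares of all genes without overlap are given with each comparison below. The matches of the 9 genes without overlap are shown so that they can be compared base by base, in the direction of transcription. The E2F letters are in capitals, with up to 12 bases on each side. A single capital at an edge belongs to a neighbouring match. The windows lie on the plus strand at chr7:13278840-13278871 (Lig1), chr17:56304116-56304147 (Uhrf1), chr8:122568035-122568064 (Cdt1) and chr8:95633506-95633537 (Gins3). They lie on the minus strand at chr7:44548766-44548788 (Pold1), chr12:69228161-69228192 (Pole2), chrX:93632274-93632305 (Pola1), chr1:20820274-20820305 (Mcm3) and chr1:128359792-128359827 (Mcm6).
Lig1: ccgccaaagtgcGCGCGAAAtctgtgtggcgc
Uhrf1: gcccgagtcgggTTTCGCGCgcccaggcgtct
Pold1: gcgtatcttgtgGCGGGAAAagc
Pole2: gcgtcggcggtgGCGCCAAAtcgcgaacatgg
Cdt1: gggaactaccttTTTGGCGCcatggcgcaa
Pola1: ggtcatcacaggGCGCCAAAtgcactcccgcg
Gins3: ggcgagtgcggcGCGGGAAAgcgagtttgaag
Mcm3: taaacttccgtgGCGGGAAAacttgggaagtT
Mcm6: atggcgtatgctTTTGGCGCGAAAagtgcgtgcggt
The Mcm6 window holds TTTGGCGC on the printed strand, overlapping a different word, TTTCGCGC, on the other strand. Mcm3 and Mcm6 each have a further match outside the printed window. Lig1 and Uhrf1 also have promoters without a match, which are not printed. Bases just after the annotated start in the Mcm6 window were not found in a GENCODE M21 transcript of that gene. The other 4 genes with a match were Cdc6, Mcm5, Mcm7 and Rfc3.

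Tk1 and Cdc45 are shown whole because both had groups that did not overlap, in opposite directions, and neither window held an E2F word. The Tk1 window is chr11:117825965-117826264 on the minus strand and held none of the searched letters, so it has no capitals. The Cdc45 window is chr16:18811923-18812222 on the minus strand, with CCAAT or TTTGAA, on either strand, in capitals.
Tk1: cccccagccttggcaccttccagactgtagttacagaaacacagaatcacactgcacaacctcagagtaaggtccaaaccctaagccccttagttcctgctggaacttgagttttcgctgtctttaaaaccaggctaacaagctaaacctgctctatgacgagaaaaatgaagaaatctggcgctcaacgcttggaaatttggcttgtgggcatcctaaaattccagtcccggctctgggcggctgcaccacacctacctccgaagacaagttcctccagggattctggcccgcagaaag
Cdc45: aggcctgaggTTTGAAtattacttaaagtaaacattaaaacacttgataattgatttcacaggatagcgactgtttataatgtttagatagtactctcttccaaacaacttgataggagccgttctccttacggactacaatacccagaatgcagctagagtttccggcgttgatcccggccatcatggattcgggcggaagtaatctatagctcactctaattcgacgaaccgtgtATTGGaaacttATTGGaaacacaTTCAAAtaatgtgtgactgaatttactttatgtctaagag
Prim1 was the other gene of the 12 without an E2F match. A window without the letters says nothing of what binds the gene elsewhere.

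Libraries held 6485655 to 8290468 counts in irradiated, 7506605 to 8035763 in cocultured and 4840993 to 6607557 in normal constructs, and any count was found for 11126, 8306 and 8654 genes in irradiated 1, 2 and 3, for 11851, 11667 and 10002 genes in cocultured 1, 2 and 3, and for 12638, 14159 and 11329 genes in normal 1, 2 and 3. The libraries of a group were unlike each other, with a coefficient of biological variation of 1.32 over all genes. Irradiated 1 and normal 3 stood apart from their groups in contractile genes, with summed levels of 94057 and 159627 counts per 1000000 (CPM) against 5877 to 13849 CPM in the other 7 libraries, and mitochondrial transcripts took 21.6% and 29.7% of their counts against 5.76 to 13.4%. The noncoding transcript Gm26917 took 12.01, 4.76 and 5.28% of counts in irradiated 1, 2 and 3, 3.91, 3.53 and 3.38% in cocultured 1, 2 and 3, and 23.9, 27.4 and 9.47% in normal 1, 2 and 3. Myogenic markers, which check the label, summed to 1879 to 3449, 1498 to 2166 and 1388 to 3784 CPM in irradiated, cocultured and normal constructs. Fibroblast markers, some of which are matrix genes that myoblasts also express, summed to 5015 to 7855, 6348 to 10252 and 6266 to 11100 CPM in the same order of groups. Most of that sum was Dcn, with a mean of 7508 CPM over the 9 libraries. Col1a1 had a mean of 231 CPM and each other fibroblast marker at most 38.9 CPM. Markers of endothelium, leukocytes, adipocytes and Schwann cells each summed to at most 42.7 CPM in any library, and their part in the results was not tested. Among the 3920 tested genes with a mean level like that of the middle of the set (5.06 to 19.3 CPM), 24.0, 51.8 and 47.9% had no count in irradiated 1, 2 and 3, 11.5, 13.1 and 32.1% in cocultured 1, 2 and 3, and 13.1, 6.51 and 24.0% in normal 1, 2 and 3.

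Replication genes were scarce in every library. They took 0.0303, 0.0560 and 0.0529% of counts in irradiated 1, 2 and 3, 0.0657, 0.0761 and 0.0528% in cocultured 1, 2 and 3, and 0.0415, 0.0709 and 0.0288% in normal 1, 2 and 3. These shares and values on library totals also move with the share of Gm26917 and mitochondrial transcripts, whose part was not tested. Summed CPM, scaled by the trimmed mean of M values (TMM), were 418, 437 and 426 in irradiated, 548, 632 and 448 in cocultured, and 430, 779 and 521 in normal constructs, with means of 427 ± 9.39, 543 ± 92.3 and 577 ± 181 CPM (SD, n = 3 each). The irradiated sums overlapped the normal ones and lay below those of the cocultured group. On plain library totals the irradiated sums were 304, 563 and 531 CPM, the cocultured 659, 764 and 530 CPM and the normal 418, 716 and 290 CPM, and the irradiated and cocultured sums then overlapped as well.

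The number of replication genes with any count was also compared. Of the 31 genes, 19, 12 and 16 were detected in irradiated 1, 2 and 3, 26, 28 and 19 in cocultured 1, 2 and 3, and 23, 30 and 21 in normal 1, 2 and 3. The irradiated range touched the cocultured one at 19 genes and lay below the normal one. Genes of any kind were likewise detected in smaller number in every irradiated library than in any normal one, as given above. A few genes filled the sum: the 3 highest supplied 41.1 to 53.5% of the set's counts in irradiated libraries, 33.8 to 39.8% in cocultured and 46.6 to 52.3% in normal ones. Over the 279 values of 31 genes in 9 libraries, 85 were 0, 9 were 1 to 9 counts and 185 were 10 or more, so that zeros stood beside counts that were seldom small.

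**Figure D1:**
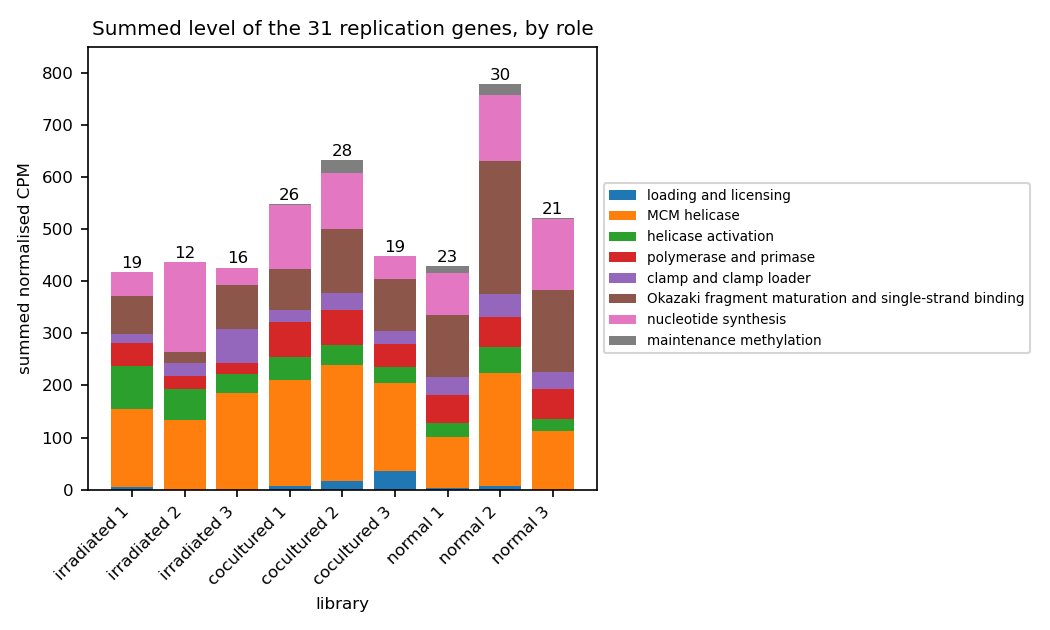
Summed TMM-scaled CPM of the 31 replication genes as a stacked bar for each library, coloured by role, irradiated left, cocultured in the middle and normal right. The number over a bar is how many of the 31 genes had a count, 12 to 19 in irradiated, 19 to 28 in cocultured and 21 to 30 in normal libraries, while the bars of irradiated and normal libraries overlap in height.

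In irradiated constructs 9 of the 31 genes had no count in any library, against 1 in cocultured and 0 in normal constructs. The 9 were Mcm5, Mcm10, Cdc6, Gins1, Gins2, Pole2, Rfc5, Fen1 and Tk1, and the gene at 0 in cocultured constructs was Rfc4. Of the 29 genes tested, 7 had no count in irradiated constructs, against 7.88% of the 11980 genes tested, and 1 had none in cocultured constructs, against 3.46%. Counts in every library of a group were found for 10 genes in irradiated, 18 in cocultured and 17 in normal constructs, and 8 were detected in all 9 libraries (Mcm7, Pcna, Cdc45, Gins4, Pola1, Rrm1, Tyms and Lig1). The share of zeros among other genes of like level, given above, was also higher in irradiated 2 and 3 than in the normal libraries, and its part in these counts was not tested.

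**Figure D2:**
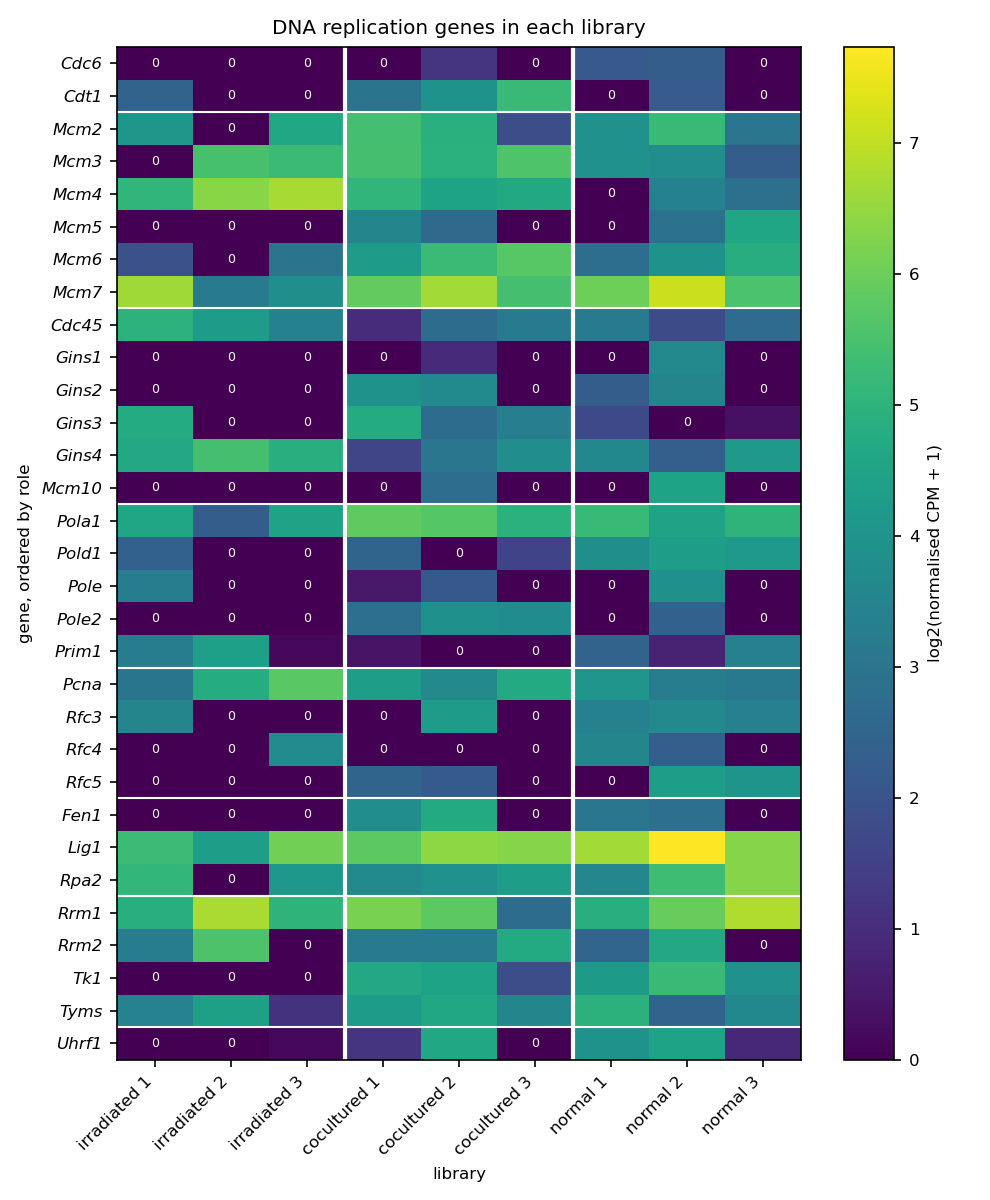
Level of each of the 31 replication genes in each of the 9 libraries, as log2 of TMM-scaled CPM plus 1, genes down the page by role and libraries across it, irradiated left, cocultured in the middle and normal right. A printed 0 marks a gene without a count, 85 of the 279 cells, and 9 rows are at 0 in all 3 irradiated libraries.

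The first comparison, irradiated against normal constructs, asks how constructs made senescent by irradiation differ. None of the 29 genes tested was called by edgeR's quasi-likelihood test at a Benjamini-Hochberg adjusted p under 0.05 over all genes, in which 0.0584% of the 11980 genes were called. At an unadjusted p under 0.05 there were 9 of the 29, against 10.3% of all genes, with 8 lower, against 8.70%, and 1 higher, against 1.59%. DESeq2, another count test, called 3 of the 26 genes it adjusted against 5.39% of all genes. These were Tk1 and Uhrf1, lower, against 4.47%, and Mcm4, higher, against 0.917%. In limma's voom 0 were called, against 0.209%. The groups did not overlap for 4 genes lower in irradiated constructs (Lig1, Pold1, Tk1 and Uhrf1), against 11.8% of all genes, and for 3 higher (Cdc45, Gins4 and Mcm4), against 3.94%. The count of 4 among 29 is near that background. The median log2 difference of the 29 was -0.90, against -0.21 for all genes tested, and 9 were above 0, or 31% of them, against 41.8% of all genes. That median was -2.65 without irradiated 1 and -0.45 without normal 2.

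In the second comparison, cocultured against normal constructs, which asks how a neighbour of an irradiated construct differs, edgeR called 0 of the 29 genes and 0% of all genes. At an unadjusted p under 0.05 there were 0 of the 29, against 4.11% of all genes. DESeq2 called 1 of 27, Rfc4, which was lower, against 0.986% of all genes called lower, 0.0713% called higher and 1.06% in either direction, and voom called 0 of 29 and 0% of all genes. Groups did not overlap for 5 genes higher in cocultured constructs (Cdt1, Gins3, Mcm3, Mcm4 and Pole2), against 5.66% of all genes, and for 2 lower (Pold1 and Prim1), against 7.51%. The median log2 difference was -0.30, against -0.07 for all genes, and 13 of the 29 (44.8%) were above 0, against 46.9%. Without normal 2 that median was 0.15, and on library totals it was 0.18, so it has no stable sign.

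The irradiated and cocultured groups were also compared directly, without a normal library in the contrast. Here edgeR called 0 of the 29 genes, against 0.0334% of all genes, and 6 had an unadjusted p under 0.05, against 9.58%, with 6 lower, against 7.33%, and 0 higher, against 2.25%. DESeq2 called 5 of 26, against 5.56%, with Tk1, Pole2 and Uhrf1 lower, against 3.78%, and Rfc4 and Prim1 higher, against 1.78%. The voom fit called 0, against 0.876%. Groups did not overlap for 5 genes lower in irradiated constructs (Cdt1, Mcm6, Pola1, Pole2 and Tk1), against 10.6% of all genes, and for 3 higher (Cdc45, Gins4 and Mcm4), against 3.90%. The median log2 difference of the 29 was -0.75, against -0.10 for all genes, and -3.01 without irradiated 1, and 10 (34.5%) were above 0, against 46.7% of all genes. All 3 comparisons share libraries in pairs, so their values are given side by side and are not independent of each other.

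Library totals in place of TMM moved the median of all genes by 0.35, 0.55 and -0.18 on the log2 scale in the order of the comparisons above. Relative to that median the replication genes then stood at -1.11, -0.31 and -0.99, against -0.69, -0.23 and -0.66 with TMM. Values below are TMM-scaled CPM, and log2 differences and standard errors (SE) come from the edgeR fit. Only 3' ends were counted, so a level does not scale with transcript length.

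Of the 6 genes of the MCM ring, Mcm3 and Mcm4 had their lowest group means in normal constructs, and Mcm2, Mcm5, Mcm6 and Mcm7 in irradiated ones. Mcm4, a subunit of its catalytic core, had 33.0, 80.9 and 103 CPM in irradiated 1, 2 and 3, 33.0, 21.6 and 24.9 CPM in cocultured 1, 2 and 3, and 0, 9.54 and 6.29 CPM in normal 1, 2 and 3. It was lowest in the normal group, with no overlap with either other group, and the lowest irradiated value equalled the highest cocultured value to 3 digits. Its log2 difference was 3.78 ± 1.28 (SE) between irradiated and normal constructs, with an edgeR adjusted p of 0.457 and a DESeq2 adjusted p of 0.0146. Between cocultured and normal constructs it was 2.33 ± 1.21 (edgeR adjusted p = 1), and between irradiated and cocultured ones 1.45 ± 1.17 (edgeR adjusted p = 0.850).

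Mcm3, another subunit of the ring, had 0, 43.5 and 37.9 CPM in irradiated 1, 2 and 3, 42.5, 29.7 and 47.4 CPM in cocultured 1, 2 and 3, and 14.2, 12.7 and 3.83 CPM in normal 1, 2 and 3. Its cocultured values lay above the normal ones by a log2 difference of 1.96 ± 1.48 (edgeR adjusted p = 1), and the irradiated group spanned both. Mcm6 had 2.77, 0 and 6.81 CPM in irradiated 1, 2 and 3, 18.5, 38.0 and 51.5 CPM in cocultured 1, 2 and 3, and 5.96, 14.3 and 27.1 CPM in normal 1, 2 and 3. The irradiated values lay below the cocultured ones by -3.49 ± 1.73 on the log2 scale (edgeR adjusted p = 0.494) and overlapped the normal ones.

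Mcm5 was at 0 in irradiated 1, 2 and 3, had 10.8, 5.38 and 0 CPM in cocultured 1, 2 and 3, and 0, 6.59 and 22.7 CPM in normal 1, 2 and 3. A floor of 3 counts over the group put the irradiated level at least 68.9-fold lower than the normal one, with an edgeR adjusted p of 0.483, but normal 1 was at 0 as well. This bound and the "at least" folds below cover counting error only. They leave out the spread between libraries and set no limit on the difference between groups. Mcm7, the most evenly detected subunit, had 99.01, 8.37 and 13.4 CPM in irradiated 1, 2 and 3, 57.1, 100.2 and 42.6 CPM in cocultured 1, 2 and 3, and 64.1, 136 and 45.1 CPM in normal 1, 2 and 3. All 3 groups overlapped, and the end of the gene is shared with Cops6 on the other strand in GENCODE M21. Mcm2 had 15.97, 0 and 23.5 CPM in irradiated 1, 2 and 3, 42.1, 29.1 and 2.60 CPM in cocultured 1, 2 and 3, and 13.97, 36.1 and 7.11 CPM in normal 1, 2 and 3, again with overlap in every pair. Of the 6 subunits, which act in equal numbers in the ring, 4, 3 and 5 were detected in irradiated 1, 2 and 3, 6, 6 and 5 in cocultured 1, 2 and 3, and 4, 6 and 6 in normal 1, 2 and 3.

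Both loaders had low counts. Cdt1, which brings the ring to origins, had 4.47, 0 and 0 CPM in irradiated 1, 2 and 3, 6.86, 14.8 and 36.3 CPM in cocultured 1, 2 and 3, and 0, 3.64 and 0 CPM in normal 1, 2 and 3. Cocultured values lay above both other groups, by a log2 difference of 3.97 ± 3.04 against normal constructs (edgeR adjusted p = 1), and the irradiated values lay below them by -3.70 ± 3.00 (edgeR adjusted p = 0.857). Cdc6, the ATPase that recruits it, was at 0 in all 3 irradiated libraries and had 0, 1.24 and 0 CPM in cocultured 1, 2 and 3 and 3.49, 3.86 and 0 CPM in normal 1, 2 and 3. The irradiated level was at least 20.9-fold lower than the normal one (edgeR adjusted p = 0.483), and normal 3 was at 0.

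Among helicase activators, Cdc45 and Gins4 had their highest values in irradiated constructs. Cdc45, which joins the ring to form the active helicase, had 31.3, 18.5 and 9.50 CPM in irradiated 1, 2 and 3, 0.964, 5.69 and 8.02 CPM in cocultured 1, 2 and 3, and 8.01, 2.5 and 5.47 CPM in normal 1, 2 and 3. Every irradiated value lay above those of the other groups, by log2 differences of 1.89 ± 1.84 against normal (edgeR adjusted p = 1) and 2.01 ± 1.85 against cocultured constructs (edgeR adjusted p = 0.909). Gins4, a subunit of the GINS complex, had 24.5, 42.9 and 28.4 CPM in irradiated 1, 2 and 3, 2.04, 7.14 and 12.8 CPM in cocultured 1, 2 and 3, and 11.3, 4.09 and 17.0 CPM in normal 1, 2 and 3. It too was highest in the irradiated group with no overlap, by 1.56 ± 1.38 against normal (edgeR adjusted p = 1) and 2.12 ± 1.40 against cocultured constructs (edgeR adjusted p = 0.698).

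The other GINS subunits did not show that order. Gins2 was at 0 in irradiated 1, 2 and 3, had 14.2, 11.7 and 0 CPM in cocultured 1, 2 and 3, and 3.90, 10.5 and 0 CPM in normal 1, 2 and 3. Its irradiated level was at least 40.0-fold lower than the normal one (edgeR adjusted p = 0.483), with overlap at 0 in normal 3, and its end overlaps Gse1 on the other strand. Gins3 had 26.0, 0 and 0 CPM in irradiated 1, 2 and 3, 26.2, 5.69 and 8.93 CPM in cocultured 1, 2 and 3, and 2.26, 0 and 0.274 CPM in normal 1, 2 and 3. Cocultured values lay above the normal ones by 3.98 ± 3.02 (edgeR adjusted p = 1), while irradiated 1 alone carried the irradiated group.

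Gins1 and Mcm10, a factor that helps the helicase start, failed the filter on low counts and were not tested. Gins1 was at 0 in all irradiated libraries, had 0.931 CPM in cocultured 2 and was at 0 in the other 2 cocultured libraries, and had 11.6 CPM in normal 2 and 0 in normal 1 and 3. Mcm10 had the same shape, with 0 in irradiated 1, 2 and 3, 5.79 CPM in cocultured 2 alone among its group, and 21.6 CPM in normal 2 alone among its group. Of the 4 GINS subunits, 2, 1 and 1 were detected in irradiated 1, 2 and 3, 3, 4 and 2 in cocultured 1, 2 and 3, and 3, 3 and 2 in normal 1, 2 and 3.

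**Figure D3:**
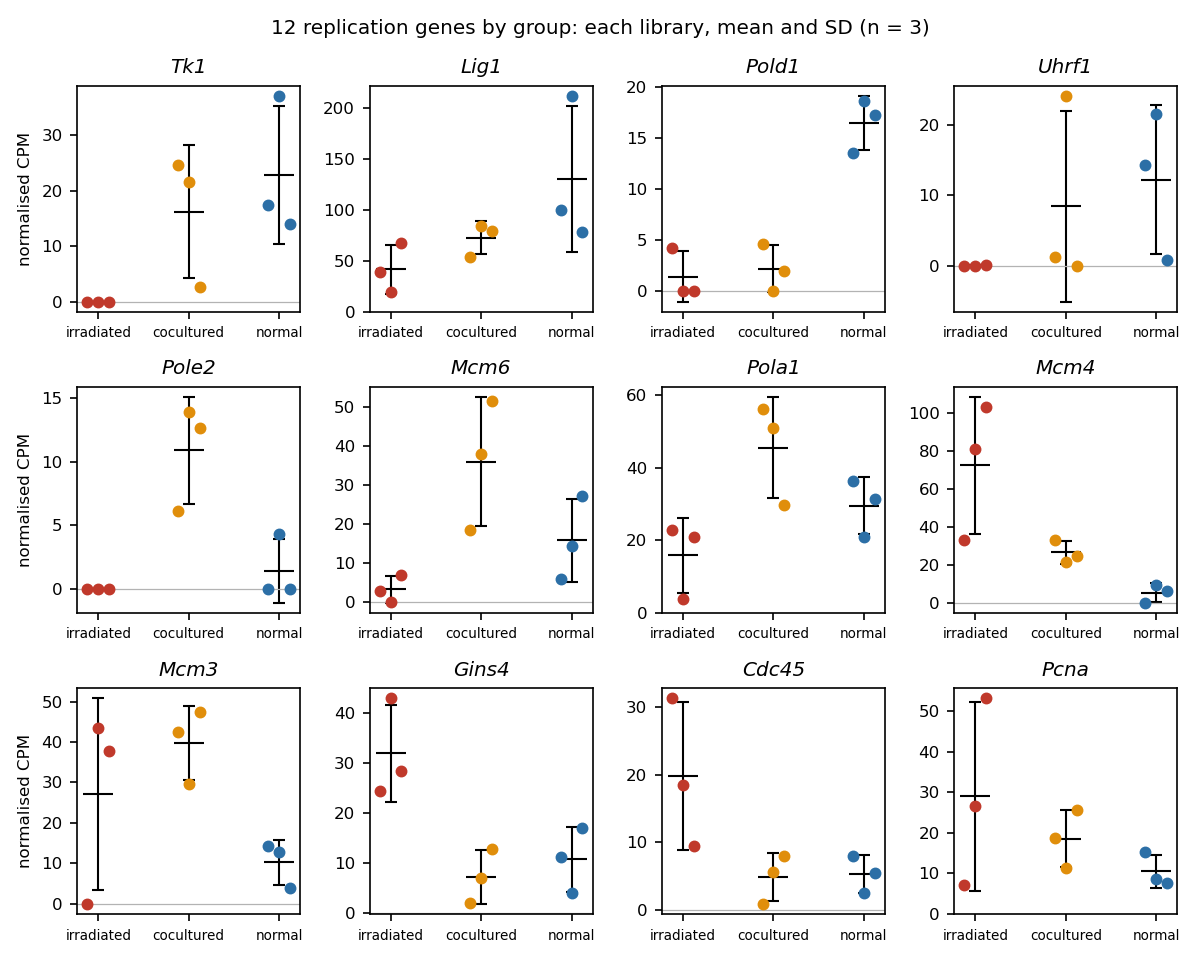
TMM-scaled CPM of 12 replication genes, chosen after their values were seen, with a point for each library and the mean and SD of each group (n = 3), irradiated left, cocultured in the middle and normal right; each panel has its own linear axis. Tk1 is at 0 in the 3 irradiated libraries and between 13.96 and 37.0 CPM in the normal ones, whereas Mcm4 lies between 33.0 and 103 CPM in the irradiated libraries and at no more than 9.54 CPM in the normal ones.

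Of the polymerase and primase genes, Pold1, Pola1 and Pole2 had their lowest group means in irradiated constructs, and Pole and Prim1 did not. Pold1, the catalytic subunit of polymerase delta, had 4.26, 0 and 0 CPM in irradiated 1, 2 and 3, 4.61, 0 and 1.92 CPM in cocultured 1, 2 and 3, and 13.6, 18.6 and 17.2 CPM in normal 1, 2 and 3. Normal values lay above those of both other groups, by log2 differences of -3.54 ± 2.91 for irradiated (edgeR adjusted p = 0.972) and -2.91 ± 2.83 for cocultured constructs (edgeR adjusted p = 1). Pola1, the catalytic subunit of polymerase alpha, had 22.8, 3.86 and 20.9 CPM in irradiated 1, 2 and 3, 56.1, 50.9 and 29.8 CPM in cocultured 1, 2 and 3, and 36.4, 20.9 and 31.5 CPM in normal 1, 2 and 3. Irradiated values lay below the cocultured ones by -1.53 ± 0.93 (edgeR adjusted p = 0.631) and overlapped the normal ones.

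Pole2, an accessory subunit of polymerase epsilon, was at 0 in irradiated 1, 2 and 3, had 6.11, 13.9 and 12.7 CPM in cocultured 1, 2 and 3, and 0, 4.32 and 0 CPM in normal 1, 2 and 3. Cocultured constructs were the highest without overlap, and irradiated constructs were at least 86.5-fold lower than these (edgeR adjusted p = 0.493, DESeq2 adjusted p = 0.0434). Against normal constructs the cocultured difference was 2.90 ± 2.94 (edgeR adjusted p = 1). Pole, the catalytic subunit of the same enzyme, had a count in 4 of the 9 libraries, irradiated 1, cocultured 1 and 2 and normal 2, at 0.429 to 13.6 CPM.

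Prim1, the catalytic primase subunit, had 8.73, 19.5 and 0.117 CPM in irradiated 1, 2 and 3, 0.321, 0 and 0 CPM in cocultured 1, 2 and 3, and 4.52, 0.682 and 9.30 CPM in normal 1, 2 and 3. Cocultured 1 and normal 2 held the same raw number, 3 counts each. That these groups did not touch therefore rests on library scaling, while normal 1 and 3 held 22 and 34 counts. Cocultured constructs held 3 counts, against 59 in normal ones, a ratio of 0.0236 with an exact 95% counting interval of 0.00473 to 0.0724 and an edgeR adjusted p of 1. The interval pools the libraries of a group and leaves out the spread between them. Irradiated constructs held 249 counts against those 3 (edgeR adjusted p = 0.499, DESeq2 adjusted p = 0.0323), and irradiated 3 overlapped the cocultured range with 1 count.

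Pcna, the sliding clamp, had 7.03, 26.6 and 53.3 CPM in irradiated 1, 2 and 3, 18.7, 11.4 and 25.5 CPM in cocultured 1, 2 and 3, and 15.2, 8.64 and 7.66 CPM in normal 1, 2 and 3. The groups overlapped through irradiated 1, and the edgeR log2 difference between irradiated and normal constructs was 1.46 ± 1.24 (edgeR adjusted p = 0.984). Rfc5, a clamp loader subunit, was at 0 in irradiated 1, 2 and 3, had 4.61, 3.52 and 0 CPM in cocultured 1, 2 and 3, and 0, 18.9 and 15.1 CPM in normal 1, 2 and 3. Irradiated constructs were at least 84.9-fold lower than normal ones (edgeR adjusted p = 0.483), with normal 1 also at 0 and Wsb2 overlapping the gene's end on the other strand.

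Rfc4, another loader subunit, was at 0 in cocultured 1, 2 and 3, had 0, 0 and 12.2 CPM in irradiated 1, 2 and 3, and 10.7, 4.09 and 0 CPM in normal 1, 2 and 3. DESeq2 called the cocultured group lower than the normal one (adjusted p = 2.40e-05), at least 50.3-fold by the floor of 3 counts, whereas edgeR gave an adjusted p of 1 and normal 3 was at 0. The DESeq2 call between irradiated and cocultured constructs (adjusted p = 9.58e-06, against an edgeR adjusted p of 0.493) rests on irradiated 3 alone. The end of Rfc4 overlaps Eif4a2, a gene on the other strand with 3348 counts over the 9 libraries. Rfc3 had counts in irradiated 1, cocultured 2 and normal 1, 2 and 3, at 9.30 to 17.8 CPM.

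The nucleotide synthesis gene Tk1 had the smallest edgeR p of the set. Tk1, the thymidine kinase of the salvage route, was at 0 in irradiated 1, 2 and 3, had 24.6, 21.5 and 2.60 CPM in cocultured 1, 2 and 3, and 17.5, 37.0 and 13.96 CPM in normal 1, 2 and 3. Irradiated constructs were below both groups without overlap. On counting error alone they were at least 184-fold lower than normal constructs, with 0 against 299 counts. Against cocultured ones the same bound was 132-fold, with 0 against 461 counts. The edgeR adjusted p was 0.216 against normal and 0.361 against cocultured constructs, ranks 100 and 75 among all genes tested, and the DESeq2 adjusted p was 5.97e-07 and 2.06e-06. Cocultured and normal constructs overlapped, with a log2 difference of -0.49 ± 1.69.

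The other 3 genes of this role overlapped in every pair of groups. Rrm1, the large subunit of ribonucleotide reductase, had 27.9, 106 and 31.8 CPM in irradiated 1, 2 and 3, 71.9, 53.6 and 5.65 CPM in cocultured 1, 2 and 3, and 28.1, 60.0 and 112 CPM in normal 1, 2 and 3. Rrm2, its small subunit, had 8.52, 46.9 and 0 CPM in irradiated 1, 2 and 3, 8.36, 8.07 and 25.3 CPM in cocultured 1, 2 and 3, and 4.72, 24.5 and 0 CPM in normal 1, 2 and 3. Tyms, which makes thymidylate, had 9.80, 20.2 and 1.17 CPM in irradiated 1, 2 and 3, 17.9, 24.1 and 10.6 CPM in cocultured 1, 2 and 3, and 30.4, 4.54 and 11.2 CPM in normal 1, 2 and 3. Within a group the values of these 3 spread over most of the range seen between groups, and a Tyms pseudogene in the files could share reads with Tyms.

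Lig1, the ligase that seals lagging strand fragments, had the highest mean CPM of the set over the 9 libraries. It had 38.8, 19.4 and 67.2 CPM in irradiated 1, 2 and 3, 54.1, 83.9 and 79.7 CPM in cocultured 1, 2 and 3, and 99.8, 212 and 78.5 CPM in normal 1, 2 and 3. The irradiated values lay below the normal ones by -1.64 ± 0.56 on the log2 scale, with an unadjusted edgeR p of 0.0120 and adjusted p of 0.466. Cocultured values lay between and overlapped both, at -0.84 ± 0.55 against normal constructs.

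Fen1, the flap nuclease of the same step, was at 0 in irradiated 1, 2 and 3, had 12.7, 25.4 and 0 CPM in cocultured 1, 2 and 3, and 7.19, 6.14 and 0 CPM in normal 1, 2 and 3. The irradiated level was at least 38.1-fold lower than the normal one (edgeR adjusted p = 0.483) and at least 104-fold lower than the cocultured one (edgeR adjusted p = 0.493), and each of those groups had a library at 0. Rpa2, a subunit of the single-strand binding complex, had 33.9, 0 and 16.5 CPM in irradiated 1, 2 and 3, 11.9, 14.2 and 19.3 CPM in cocultured 1, 2 and 3, and 10.9, 39.3 and 79.9 CPM in normal 1, 2 and 3, with overlap in every pair. Uhrf1, which guides DNA methylation to new strands, had 0, 0 and 0.117 CPM in irradiated 1, 2 and 3, 1.29, 24.1 and 0 CPM in cocultured 1, 2 and 3, and 14.4, 21.6 and 0.821 CPM in normal 1, 2 and 3. The irradiated group held 1 count, against 168 in the normal group, a ratio of 0.00323 with an exact 95% counting interval of 8.12e-05 to 0.0182, an edgeR adjusted p of 0.483 and a DESeq2 adjusted p of 0.0283. This interval also pools the libraries of a group and leaves out the spread between them. That these groups did not overlap rests on 1 count in irradiated 3 against 3 counts in normal 3.

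The spread within groups was wide for these genes and for others of their level. The median coefficient of variation of the replication genes detected was 102% in irradiated, 75.9% in cocultured and 86.0% in normal constructs, and over genes of like level it was 133, 88.2 and 84.8% in the same order of groups.

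Neighbouring parts of the pathway were followed on lists of other genes, and edgeR called 0 genes of any list in any comparison. DESeq2 did call tested genes of some lists in irradiated against normal constructs, all lower, against 4.47% of all genes called lower. These are named here by list with the DESeq2 adjusted p. Most were mitotic genes: Kif11 (2.38e-07), Ttk (0.000201), Anln (0.000367), Top2a (0.000809), Ccnb2 (0.0307), Ccnb1 (0.0340) and Kif20a (0.0356). The E2F and G1/S regulators were E2f1 (0.00749), E2f7 (0.0406) and Ccna2 (7.47e-05). Gmnn (0.0178) was called among pre-replicative complex partners, Pold3 (1.60e-05) among polymerase subunits and Pclaf (0.0144) among chromatin factors. No tested origin firing or nucleotide supply gene was called there by DESeq2. Of the 8 tested partners of the pre-replicative complex, 2 had a positive and 6 a negative log2 difference between irradiated and normal constructs, with a median of -0.55. Mcmbp, which binds MCM proteins, had 25.3, 22.5 and 54.9 CPM in irradiated 1, 2 and 3, 53.6, 53.0 and 50.6 CPM in cocultured 1, 2 and 3, and 42.7, 57.3 and 43.2 CPM in normal 1, 2 and 3. Origin firing factors split 4 positive to 5 negative (median -0.27), and other polymerase and clamp loader subunits 1 positive to 10 negative (median -1.60). Rfc1, the large clamp loader subunit, had 141, 89.1 and 36.5 CPM in irradiated 1, 2 and 3, against 42.9, 74.5 and 160 CPM in normal 1, 2 and 3, with a log2 difference of -0.06 ± 0.59.

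Nucleotide supply genes split 3 positive to 7 negative (median -0.72), replication-coupled chromatin factors 3 to 9 (median -0.26), and E2F and G1/S regulators 4 to 14 (median -0.97), between irradiated and normal constructs. Their medians between cocultured and normal constructs were -0.13, -0.11 and 0.13, and the medians of pre-replicative complex partners, origin firing factors and other polymerase and clamp loader subunits were 0.62, 0.20 and -0.09. Between irradiated and cocultured constructs, 0 of 8 pre-replicative complex partners were positive (median -0.70), 3 of 9 origin firing factors (median -0.65) and 3 of 11 other polymerase and clamp loader subunits (median -0.97). In the same comparison 3 of 10 nucleotide supply genes were positive (median -0.12), 5 of 12 chromatin factors (median -0.12) and 4 of 18 E2F and G1/S regulators (median -1.08), against 46.7% of all genes and a median of -0.10. All 20 mitotic genes tested had negative log2 differences between irradiated and normal constructs (median -4.12) and between irradiated and cocultured ones (median -4.90), and 12 of 20 were positive between cocultured and normal ones (median 0.15).

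Summed mitotic levels were 84.3, 111 and 61.7 CPM in irradiated 1, 2 and 3, 851, 694 and 486 CPM in cocultured 1, 2 and 3, and 463, 1014 and 287 CPM in normal 1, 2 and 3. The irradiated sums lay below both other groups without overlap, whereas the summed replication genes overlapped between irradiated and normal constructs. Top2a, the topoisomerase that untangles sister chromatids, had 15.8, 29.4 and 9.39 CPM in irradiated 1, 2 and 3, 154, 161 and 54.8 CPM in cocultured 1, 2 and 3, and 81.7, 219 and 111 CPM in normal 1, 2 and 3. Its log2 difference was -2.91 ± 0.61 between irradiated and normal constructs, with an edgeR adjusted p of 0.124 and a DESeq2 adjusted p of 0.000809. The difference between the mitotic and the replication lists was not tested.

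**Figure D4:**
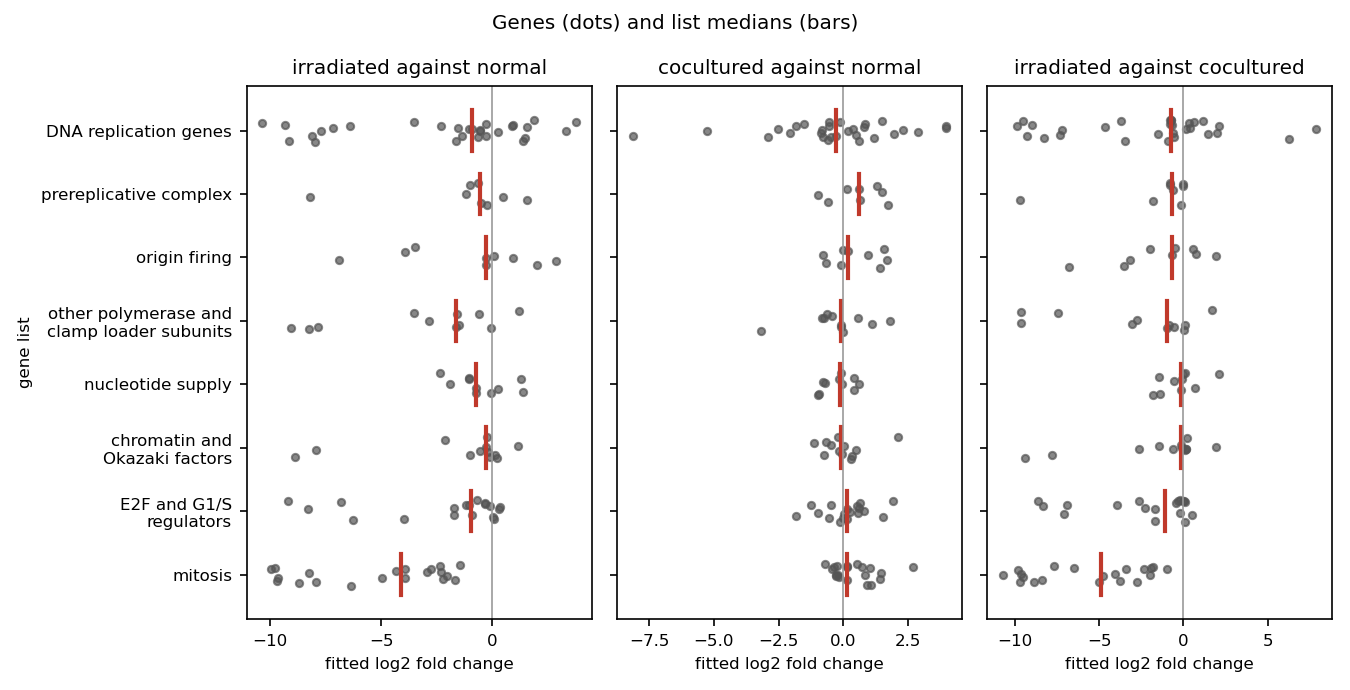
Fitted log2 fold change of each tested gene (dots) and the median of each list (bars), lists down the page, one panel per comparison, with a line at 0. The 20 mitotic genes all lie below 0 where irradiated constructs are compared with normal ones, whereas 9 of the 29 replication genes lie above 0; dots far from 0 include genes without a count in a whole group, whose fitted value depends on the prior count.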

How the data were processed

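The authors' deposited files hold raw counts by gene symbol, whole numbers, 1 file for each of the 9 libraries, not normalized. Per the labels' protocols, 100 ng of total RNA entered a 3' end kit (QuantSeq FWD) read as single-end 75 bp reads, with no molecular identifiers stated. The submitters' processing notes name FastQC, STAR, HTSeq, GRCm39 and mm39. For annotation and strand setting no value is given in the sources used here. Genes that overlap at their ends, as 8 of the set do in GENCODE M21, may share reads. Besides those named above, Tk1 overlaps Gm20708 and Fen1 overlaps Gm10143 on the other strand. Cdt1 overlaps Gm20388 and Pole2 overlaps Gm49384 on the same strand. The part of these overlaps in the counts was not tested.

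Samples were grouped by title. Genes were filtered with filterByExpr, which kept 11980 genes and 29 of the 31, scaled by TMM, and tested in 1 edgeR 4.0.16 quasi-likelihood model (glmQLFit, glmQLFTest; limma 3.58.1, R 4.3.3) over all 9 libraries with group as its term. Adjusted p-values are Benjamini-Hochberg over all genes, with calls under 0.05. Standard errors are approximate, the log2 fold change over the square root of F. Genes at 0 in a group carry a bound from 3 counts over the group, and such bounds and intervals cover counting error only. DESeq2 1.42.0, voom and other settings were run as alternatives. The procedure was tested on simulated counts for irradiated against normal constructs, with 50 genes changed at each fold. With the spread estimated from these data, edgeR recovered 0% of 2-fold, 2% of 4-fold, 34% of 8-fold and 42% of 16-fold changes. It made 40 calls, of which 1 was false. A gene that was not called may therefore still differ, even by a large fold. Libraries of a group differed by more than sampling noise, so none was treated as a repeat deposit of another. The mean chi-square over genes was 32.6 to 274 across the pairs of libraries within groups. That does not show that they came from separate constructs, and the 3 per group are those of the labels.

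The members and lists were chosen with earlier results of these data known. Values per library are given for the 14 most abundant genes, for genes at 0 in irradiated constructs with at least 30 counts in normal ones, and, chosen after values were seen, for genes whose groups did not overlap and for others where useful. Log2 differences are mostly those of genes whose groups did not overlap. Of the 7 other lists, up to 3 genes by mean CPM could be named, besides some named for a DESeq2 call after values were seen.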

Additional observations from a re-analysis of the deposited data

How the results depend on the processing

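With 3 libraries a group and wide spread, calls over all genes moved with the setting. In irradiated against normal constructs edgeR's 7 calls became 682 with DESeq2, 25 with voom, 130 without a filter, 12 with a filter blind to group, 0 with the 6 libraries alone, 20 without normal 3 and irradiated 1, and 190 without irradiated 2 and irradiated 3, a setting chosen after seeing the data. Leaving out each library in turn gave 6 to 147, the highest without irradiated 1. In cocultured against normal constructs 0 became 178 with DESeq2, 52 without a filter and 1 without normal 3 and irradiated 1. In irradiated against cocultured constructs 4 became 703 with DESeq2, 105 with voom, 9 with library totals, 153 without a filter, 9 with the blind filter, 0 with the 6 libraries alone, 21 without normal 3 and irradiated 1, and 449 without irradiated 2 and irradiated 3. Leaving out each library in turn gave 1 to 97, the highest without irradiated 1. The cause was not tested.

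Replication genes called were 3, 1 and 5 with DESeq2 in the order of the comparisons, and 1 (Mcm3) in irradiated against cocultured constructs without irradiated 2 and irradiated 3, against 0 in every other setting run. The median log2 difference in irradiated against normal constructs was -2.22 with voom, -2.51 without normal 3 and irradiated 1, and -2.65 to -0.45 on leaving out each library. In cocultured against normal constructs it was 0.18 with library totals and -0.54 to 0.15 on leaving out each library. In irradiated against cocultured constructs it was -2.12 with voom, -2.99 without normal 3 and irradiated 1, and -3.01 to -0.59 on leaving out each library. The mean summed CPM of irradiated constructs, 426.9, was 444.6 with RLE size factors, 466.1 with library totals, 493.3 without normal 3 and irradiated 1, and 407.2 to 459.2 on leaving out each library, and that of cocultured constructs, 542.9, was 651.3 with library totals. Over the 29 replication genes tested and the 3 comparisons, 47 of 783 values on leaving out a library and 45 of 815 in the other settings changed sign. In the 31 results of genes whose groups did not overlap or whose unadjusted p was under 0.05, 0 of 570 did, but such a choice favours a stable sign. Of other results printed with a test, Pcna between irradiated and normal constructs was -0.58 on the log2 scale without irradiated 2 and irradiated 3. Genes outside the set were not rerun one by one.

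No pairing by replicate number was seen: same-numbered libraries had correlations of -0.071 to 0.0537, and 0 of 9 exceeded 0.1. Differently numbered libraries of different groups had correlations of -0.081 to 0.0944. With 3 libraries a group and wide spread, these values cannot exclude that some constructs shared a dish. With the replicate block, edgeR called 23, 0 and 12 genes, 0 of them replication genes, and the medians were -1.37, -0.26 and -1.11.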
